A study of Mus musculus with 10 samples.

Results

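ISG15 is a small ubiquitin-like protein, and 5 genes make up the pathway that attaches it to other proteins and takes it off again. They were taken by symbol from both deposited tables, where all 5 were present among 24043 gene rows in each: ISG15 itself, the activating (E1) enzyme UBA7, the conjugating (E2) enzyme UBE2L6, the ligase (E3) HERC6 and the protease USP18. The RNA came from prostate cancer organoids, cell cultures grown in 3 dimensions, with the dorsal-lateral prostate lobe of 8-week-old C57BL/6 mice as the labelled source. All groups, controls included, carried cMYC overexpression, floxed EZH2 alleles and an inducible CreERT2 recombinase under a PSA promoter, and all were kept in 10 nM of the synthetic androgen R1881. In the chemical experiment 3 libraries given 1 µM DZNep were set against 3 libraries given DMSO. DZNep is used in the series as an inhibitor of the histone methyltransferase EZH2, and is known to block S-adenosylhomocysteine hydrolase, which affects other methyltransferases too. In the genetic experiment 2 libraries given 1 µM Tamoxifen, which activates CreERT2, were set against 2 libraries given ethanol (EtOH), and RNA was taken 3 days after treatment in both. The promoter that drives Cre is known as active in luminal secretory cells under androgen, so it need not act in every cell of an organoid. The labels do not tell whether replicates were separate cultures or mice, and the p-values therefore reflect no more than how these libraries varied, possibly for technical reasons.

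ISG15 is translated as a precursor and carries a pair of ubiquitin-like folds. UBA7 activates its carboxyl end with ATP, UBE2L6 takes it over on a cysteine, and a ligase passes it to lysines of newly made proteins. HERC6 is the main ISG15 ligase in the mouse, where HERC5 has that role in humans. USP18 cleaves ISG15 from its targets and, apart from its protease activity, binds the interferon receptor subunit IFNAR2 and dampens signalling. All these genes are induced by interferon through transcription factor complexes that bind the interferon-stimulated response element.

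The start regions of the genes are shown because the genes are known as interferon targets. RefSeq start windows (build GRCm38.p6), with 250 bases before and 50 bases from the start on, were printed for 4 of the 5 genes, without USP18, each 5′ to 3′ on the gene's strand. Capitals mark matches to AANNGAAA, the core bound by interferon regulatory factors, on either strand, or to its paired form, a GAAA followed after any 2 bases by another GAAA, which always holds that core. The windows lie at chr4:156200769-156201068 (minus strand) for ISG15, chr9:107975317-107975616 (plus) for UBA7, chr2:84798578-84798877 (plus) for UBE2L6 and chr6:57580742-57581041 (plus) for HERC6.
ISG15: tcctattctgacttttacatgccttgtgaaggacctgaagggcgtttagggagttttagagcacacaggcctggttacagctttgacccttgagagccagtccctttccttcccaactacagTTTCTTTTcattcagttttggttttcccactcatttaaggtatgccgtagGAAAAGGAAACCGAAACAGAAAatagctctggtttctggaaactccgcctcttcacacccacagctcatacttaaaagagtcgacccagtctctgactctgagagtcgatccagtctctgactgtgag
UBA7: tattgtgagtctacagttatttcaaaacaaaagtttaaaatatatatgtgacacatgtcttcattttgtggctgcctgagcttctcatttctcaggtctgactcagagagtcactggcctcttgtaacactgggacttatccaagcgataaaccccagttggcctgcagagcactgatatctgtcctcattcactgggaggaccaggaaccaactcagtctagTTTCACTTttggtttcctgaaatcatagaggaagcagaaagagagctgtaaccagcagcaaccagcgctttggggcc
UBE2L6: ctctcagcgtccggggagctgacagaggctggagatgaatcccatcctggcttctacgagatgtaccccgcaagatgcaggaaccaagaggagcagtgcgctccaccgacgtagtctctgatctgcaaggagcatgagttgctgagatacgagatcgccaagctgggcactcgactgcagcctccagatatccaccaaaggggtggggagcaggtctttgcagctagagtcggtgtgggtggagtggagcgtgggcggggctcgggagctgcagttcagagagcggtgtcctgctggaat
HERC6: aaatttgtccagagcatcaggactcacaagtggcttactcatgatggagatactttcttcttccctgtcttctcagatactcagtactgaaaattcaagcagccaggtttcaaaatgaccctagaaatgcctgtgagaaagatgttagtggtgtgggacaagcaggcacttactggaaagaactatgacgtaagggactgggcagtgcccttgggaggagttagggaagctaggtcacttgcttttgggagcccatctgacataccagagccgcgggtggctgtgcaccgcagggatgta

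The ISG15 window held 3 overlapping copies of the paired form, from base -78 to base -57, where -1 is the base before the start. The paired form, on either strand, was present in 3.44% of 32851 such windows of mouse genes. The ISG15 window also held the single core on the opposite strand, from -128 to -121. The UBA7 window held the single core once, on the opposite strand from -27 to -20, a motif found in 23.9% of windows. The UBE2L6 and HERC6 windows held neither form, and none of the 4 held TTCNNNGAA, the gamma-activated element of interferon gamma response (8.30% of windows). The UBE2L6 window was also the richest in G and C, at 59.7% with 15 CpG sites, against 44.7% to 49.0% and at most 6 CpG sites in the other windows and a median of 52.7% and 7 over all windows. These matches are letters in a window and were not tested for binding or for a relation to the changes given below.

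Values are given as RPKM, reads scaled to gene length and to the number of mapped reads, recovered from the deposited log2 values. Each library listed between 15021 and 15404 genes above 0, and summed RPKM lay between 469455 and 512726. Absolute depth is unknown. Relative depth read from the spacing of the lowest values ran from 0.753 (DZNep 2) to 1.16 (DMSO 3) with DMSO 1 set to 1, a ratio that 14.8% to 18.2% of the weakest genes shared in the other 9 libraries. EZH2, the gene under study, measured 22.5, 24.2 and 24.7 RPKM with DZNep, against 30.4, 29.8 and 27.1 RPKM with DMSO (log2 change -0.28, limma adjusted p = 0.0142; exact two-sided permutation p = 0.1, the smallest that 3 against 3 allow). That call was lost with the replicate number as a block (adjusted p = 0.0588) and without DMSO 2 (0.0641). It measured 32.0 and 33.2 RPKM in the libraries labelled Tamoxifen, against 27.9 and 34.0 RPKM with EtOH (0.08, adjusted p = 0.635). A value over the whole gene does not check a deletion of some exons. All 11 markers of prostate epithelium averaged over 1 RPKM in every group, among them KRT8, KRT18 and KRT5. Of 14 immune markers only CD68 did so, and PTPRC, which all leukocytes carry, reached at most 0.00494 RPKM in any library.

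The first comparison asked what DZNep did to the pathway at the RNA level. All 5 genes passed the expression filter, HERC6 only through the DZNep libraries in which it was high, and all 5 rose. Of the 11143 genes tested, 27.7% passed in either direction, 16.6% rose and 11.1% fell. By the ratio of mean RPKM, ISG15 had the largest change (10.2), UBA7 the smallest (1.51), and UBE2L6 (2.41), HERC6 (2.23) and USP18 (2.15) lay close together between them. In each of the 5 genes every DZNep library lay above every DMSO library, which held for 26.1% of genes tested. Changes were tested with limma on log2(RPKM + 1), a scale that understates changes of weakly expressed genes.

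ISG15, the modifier, measured 21.2, 21.6 and 22.9 RPKM with DZNep, against 2.21, 2.05 and 2.21 RPKM with DMSO. The groups were far apart and each was tight, and mean RPKM was 10.2 times as high with DZNep. The log2 change was 2.86 (SE 0.0517, 95% interval 2.74 to 2.98; adjusted p = 1.87e-07), the 4th largest rise among all genes tested.

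The enzymes had smaller changes. UBA7, which starts the cascade, measured 10.52, 10.53 and 10.4 RPKM with DZNep, against 6.91, 6.49 and 7.36 RPKM with DMSO. The DZNep libraries lay within a narrow band above all controls, and the log2 change of 0.54 (SE 0.0533; adjusted p = 5.45e-04) was the smallest of the 5. UBE2L6, the E2, measured 14.7, 13.53 and 13.52 RPKM with DZNep, against 6.30, 5.95 and 5.05 RPKM with DMSO. Its lowest DZNep library was above 2 times the highest control, and its log2 change was 1.14 (SE 0.0762; adjusted p = 6.83e-05). HERC6, the mouse ligase, measured 1.978, 1.979 and 2.05 RPKM with DZNep, against 0.861, 0.805 and 1.03 RPKM with DMSO. It was the weakest of the 5 and averaged under 1 RPKM in DMSO, so it passed the filter through the DZNep libraries in which it was high. Its log2 change was 0.66 (SE 0.0718; adjusted p = 7.61e-04), which became 1.08 with 0.1 RPKM added in place of 1 (adjusted p = 0.00105), and its mean RPKM was 2.23 times as high with DZNep.

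USP18, which removes ISG15, was the most abundant member in every library. It measured 29.1, 31.9 and 30.5 RPKM with DZNep, against 14.5, 13.4 and 14.8 RPKM with DMSO. No DZNep library came near a control, and the log2 change was 1.05 (SE 0.0568; adjusted p = 2.54e-05). The rises of the 5 genes passed in each of the alternatives in which the gene was tested, and the 95% intervals of UBE2L6 (0.97 to 1.32) and USP18 (0.92 to 1.18) overlapped.

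**Figure D1:**
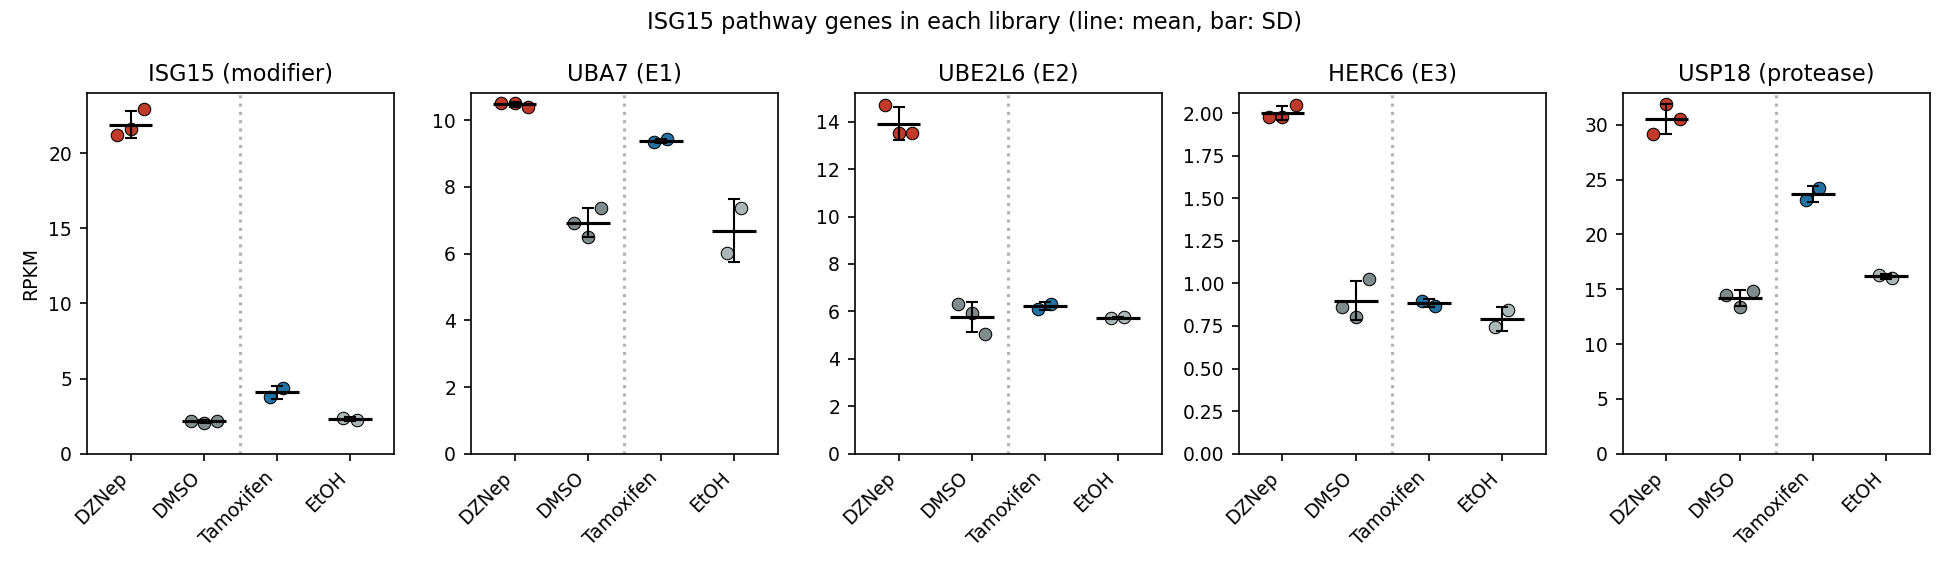
RPKM of each gene (vertical axes from 0, a scale for each gene) in every library of the DZNep, DMSO, Tamoxifen and EtOH groups. Points are libraries, lines are means and bars are SDs (n = 3, 3, 2 and 2). ISG15 stood at 21.2 to 22.9 RPKM with DZNep and at most 4.37 RPKM elsewhere, while UBA7 reached 9.34 RPKM or more with both DZNep and Tamoxifen.

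Because ISG15 rose more than its enzymes, the make-up of the pathway's RNA shifted with DZNep. RPKM is a value per length, so the genes can be set side by side. Summed over the 5 genes, RPKM was 77.5 to 79.6 with DZNep, against 28.7 to 30.7 with DMSO. ISG15 held 27.1% to 28.9% of that sum with DZNep, against 7.16% to 7.25% with DMSO. USP18 held 37.6% to 40.1% with DZNep, against 46.6% to 48.6% with DMSO. There was 0.718 ± 0.0382 RPKM of ISG15 for each RPKM of USP18 with DZNep and 0.152 ± 0.00232 with DMSO (SD, n = 3 each).

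The order of the levels was USP18, ISG15, UBE2L6, UBA7 and HERC6 in the 3 DZNep libraries. In the other 7 libraries it was USP18, UBA7, UBE2L6, ISG15 and HERC6. ISG15 thus stood above UBE2L6 and UBA7 in the DZNep libraries and below both elsewhere. Within each group the lowest library of each gene lay above the highest library of the next gene in the order. In DMSO the neighbours UBA7 (6.92 ± 0.435 RPKM) and UBE2L6 (5.77 ± 0.646 RPKM) were close, with lowest and highest values of 6.49 and 6.30 RPKM. UBE2L6 per UBA7 was 1.33 ± 0.0607 with DZNep and 0.838 ± 0.132 with DMSO. HERC6 per UBE2L6 was 0.144 ± 0.00868 with DZNep and 0.158 ± 0.0387 with DMSO (SD, n = 3 each), and these ranges overlapped. These ratios follow from the levels above and were not tested.

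**Figure D2:**
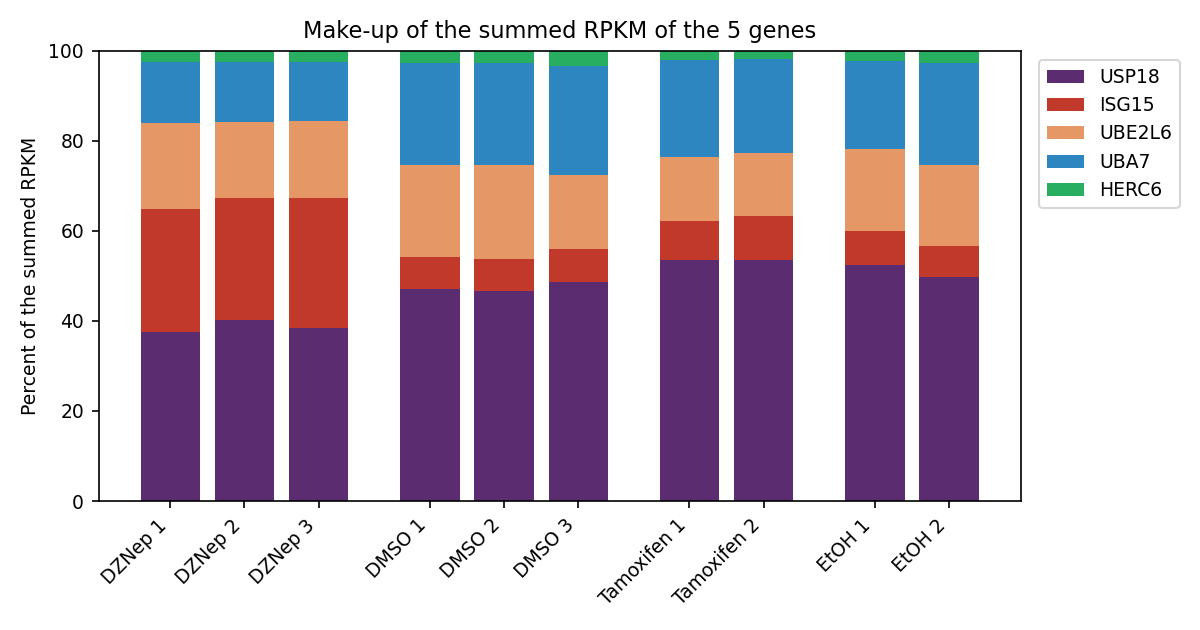
Percent of the summed RPKM of the 5 genes (vertical axis, 0 to 100) held by each gene, with a bar for each library. ISG15 takes 27.1% to 28.9% in the DZNep bars, against 7.16% to 7.25% with DMSO, and 8.74% to 9.67% in the Tamoxifen bars, against 6.90% to 7.63% with EtOH.

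The second comparison asked the same of the genetic experiment. ISG15 and USP18 rose in the libraries labelled Tamoxifen, 2 of the 4 genes tested. Of 11123 genes tested, 2.07% passed in either direction, 0.692% rose and 1.38% fell. UBA7 and UBE2L6 did not pass, and HERC6 lay below the filter of a mean of 1 RPKM. In all 5 genes both Tamoxifen libraries lay above both EtOH libraries, which held for 36.6% of genes tested.

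ISG15 measured 3.78 and 4.37 RPKM with Tamoxifen, against 2.38 and 2.22 RPKM with EtOH. The groups were apart, yet both Tamoxifen libraries stood far under the DZNep level. The log2 change was 0.62 (SE 0.0855, 95% interval 0.40 to 0.84; adjusted p = 0.0395). USP18 measured 23.2 and 24.2 RPKM with Tamoxifen, against 16.3 and 16.0 RPKM with EtOH. Its change of 0.52 (SE 0.0535; adjusted p = 0.0305) came with mean RPKM 1.46 times as high. Both calls were lost without Tamoxifen 1 (adjusted p = 0.111 for ISG15 and 0.121 for USP18) or Tamoxifen 2 (0.255 and 0.228), and with no filter (0.125 and 0.117).

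UBA7 measured 9.34 and 9.42 RPKM with Tamoxifen, against 6.03 and 7.35 RPKM with EtOH. The EtOH libraries differed from each other by more than the Tamoxifen libraries did, and the log2 difference of 0.44 (SE 0.0928; adjusted p = 0.0800) did not pass. Without EtOH 2 it was 0.56 and passed (adjusted p = 0.0285), as it did with robust variances (0.0394) and when the 4 groups were fitted together (0.0108). UBE2L6 measured 6.10 and 6.33 RPKM with Tamoxifen, against 5.71 and 5.75 RPKM with EtOH, a log2 difference of 0.10 (95% interval -0.04 to 0.24; adjusted p = 0.314). HERC6 measured 0.899 and 0.868 RPKM with Tamoxifen, against 0.743 and 0.843 RPKM with EtOH. Tested with no filter, its log2 difference was 0.07 (95% interval -0.05 to 0.20; adjusted p = 0.446). Summed RPKM of the 5 genes was 43.3 and 45.2 with Tamoxifen, against 31.2 and 32.2 with EtOH, and USP18 held 53.5% of it in both Tamoxifen libraries, against 49.8% and 52.3% with EtOH.

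The third comparison set the change with DZNep against the change with Tamoxifen, each taken within its own table with its own controls. Of the 5 genes, 4 passed this test, each with the larger change under DZNep. Of 11155 genes tested, 19.4% passed in either direction, 10.6% with a positive and 8.79% with a negative difference. For ISG15 the difference on the log2 scale was 2.24 (SE 0.0909, 95% interval 2.04 to 2.44; adjusted p = 2.44e-06). For UBE2L6 it was 1.04 (SE 0.108; adjusted p = 4.06e-04), for HERC6 0.59 (SE 0.112; adjusted p = 0.00762) and for USP18 0.53 (SE 0.0810; adjusted p = 0.00281). UBA7 was the exception. Its mean RPKM was 1.51 times as high with DZNep as with DMSO and 1.40 times as high with Tamoxifen as with EtOH, and the difference of 0.10 did not pass (95% interval -0.13 to 0.33; adjusted p = 0.531). HERC6 again passed the filter through its DZNep libraries, and with 0.1 RPKM added its difference was 0.94 (adjusted p = 0.0148). The comparison is of these treatments, each at 1 µM, and EZH2 activity was not measured in these files.

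**Figure D3:**
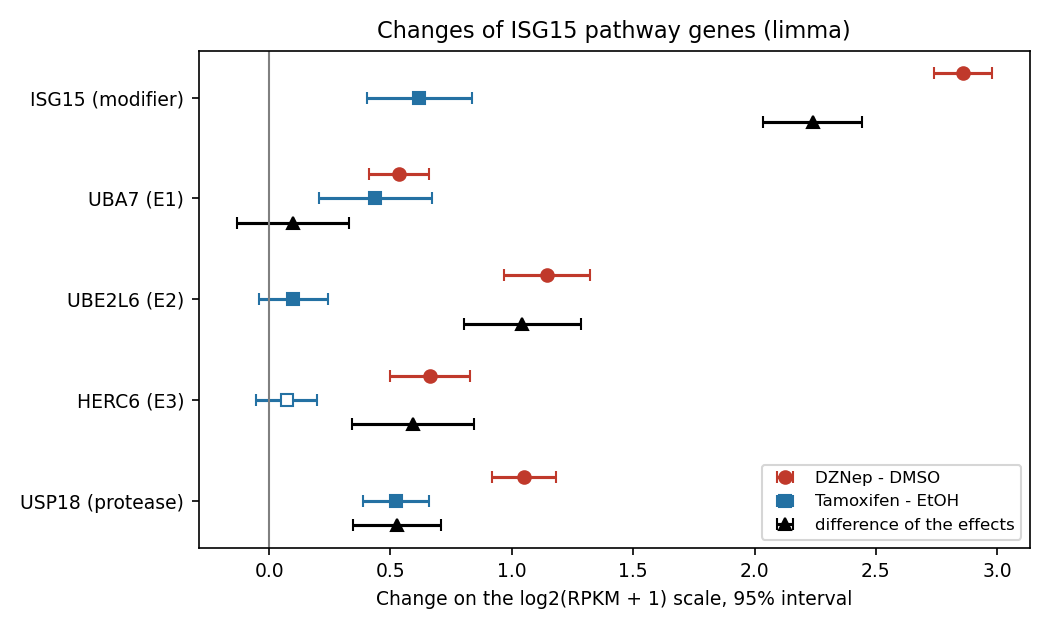
Change on the log2(RPKM + 1) scale (horizontal axis) of each gene for DZNep minus DMSO, Tamoxifen minus EtOH and the difference of these effects, with 95% intervals from limma. The open square, HERC6 with Tamoxifen, was fitted with no filter. The interval of the difference for UBA7 spans 0, and those of the other 4 genes lie above 0.

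**Figure D4:**
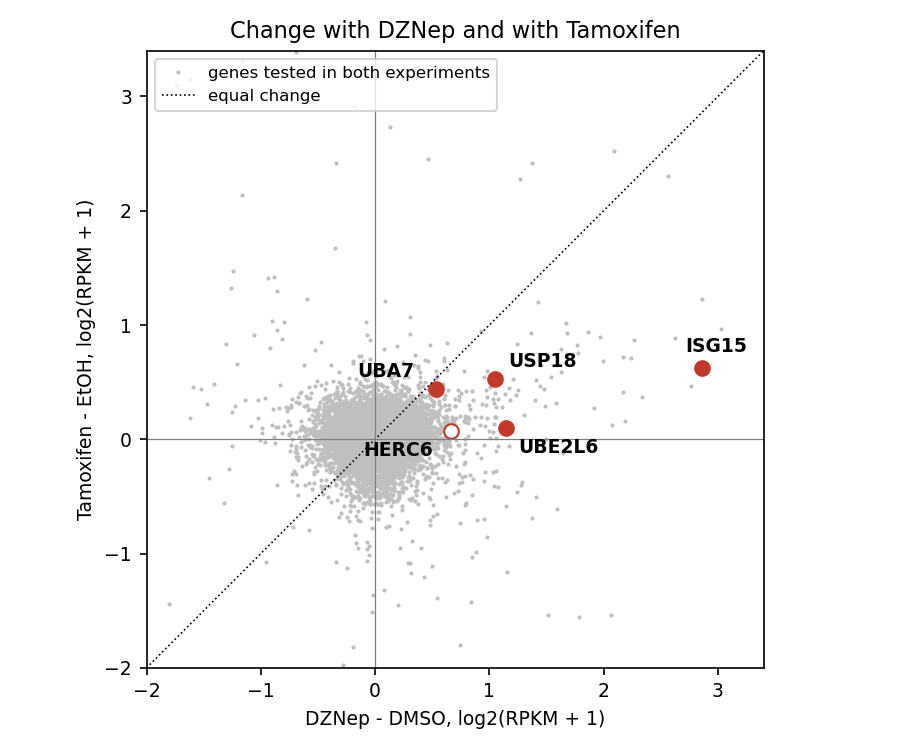
Change with DZNep (horizontal axis) against change with Tamoxifen (vertical axis), both on the log2(RPKM + 1) scale, for 10994 genes tested in both experiments (grey), of which 27 lie outside the plotted range, and for the 5 pathway genes (red, with HERC6 open because it was fitted with no filter for Tamoxifen). UBA7 lies near the dotted line of equal change, at 0.54 and 0.44, and ISG15 lies far under it, at 2.86 and 0.62.

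The tables also held 11 genes listed as other ligases and proteases of ISG15. The list includes HERC1, HERC2, HERC3 and HERC4 as relatives of HERC6, and nothing here shows that these act on ISG15. With DZNep 10 passed the filter, 1 rose and 1 fell, where 16.6% of all genes tested rose and 11.1% fell, and the median log2 change was -0.00 beside 0.01 over all genes tested. The share called was thus no higher than over all genes. The one that rose was TRIM25, a ligase that can use ISG15 and that also modifies the RNA sensor RIG-I, at 17.5 ± 0.992 RPKM with DZNep and 12.6 ± 0.579 RPKM with DMSO (0.45; adjusted p = 0.00158). The one that fell was HERC3, a relative of HERC6 with ubiquitin ligase activity, at 1.38 ± 0.0889 RPKM with DZNep and 1.84 ± 0.0630 RPKM with DMSO (-0.26; adjusted p = 0.0239). USP14, a proteasome-bound ubiquitin protease that also reacts with ISG15, had a log2 difference of -0.16 (adjusted p = 0.0569). With Tamoxifen 0 of 9 passed, beside 2.07% of all genes tested. TRIM25 differed by 0.31 (adjusted p = 0.102) and USP14 by -0.25 (adjusted p = 0.119).

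Signalling from the type I interferon receptor, which induces the pathway and which USP18 restrains, had 11 genes tested. With DZNep 5 of the 11 rose and 0 fell, where 16.6% of all genes tested rose and 11.1% fell, and the median was 0.12 beside 0.01 over all genes. Among them were IRF7, the factor that amplifies interferon transcription (log2 change 1.78), IRF9 (1.45), STAT2 (1.18) and IRF3 (0.27), with adjusted p from 1.52e-06 for IRF7 to 0.00433 for IRF3. With Tamoxifen IRF7 (0.76; adjusted p = 0.0263) and IRF9 (0.65; adjusted p = 0.0305) rose, 2 of 11 where 0.692% of all genes tested rose, and the median was 0.13 beside 0.04 over all genes. The difference of effects passed for 4 genes, among them STAT2, IRF9 and IRF7, each with the larger change under DZNep. The receptor subunits IFNAR1 and IFNAR2, the kinases JAK1 and TYK2, and SKP2, part of a ubiquitin ligase that targets USP18, did not pass in either experiment.

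Other ubiquitin-like systems, those of SUMO, NEDD8, UFM1, URM1, ATG12 and FAT10, had all 33 listed genes tested. With DZNep 4 rose and 3 fell, a share below the 27.7% of all genes tested that passed, and the median was 0.01, as over all genes. With Tamoxifen 0 rose and 1 fell, where 2.07% of all genes tested passed, and the median was -0.05 beside 0.04 over all genes. UBD, which encodes FAT10, a modifier also built of ubiquitin-like folds and induced by interferon gamma and TNF, had the largest change of the list, a log2 change of 1.00 (SE 0.184; adjusted p = 0.00721). Its levels were 4.54 ± 1.14 RPKM with DZNep and 1.77 ± 0.593 RPKM with DMSO, a wider spread than that of any of the 5 pathway genes relative to its mean. With Tamoxifen UBD measured 1.41 ± 0.0478 RPKM, against 1.39 ± 0.164 RPKM with EtOH. UBE2M, a NEDD8 E2, and SENP1, a SUMO protease, fell with DZNep by 0.36 and 0.31 on the log2 scale (adjusted p = 0.00492 and 0.00368). SUMO2 fell with Tamoxifen to 72.3 ± 1.28 RPKM, against 101 ± 6.43 RPKM with EtOH (-0.48; adjusted p = 0.0395), and did not pass with DZNep (0.13; adjusted p = 0.241). Among the ubiquitin genes, UBA1 and the E2 most like UBE2L6, 1 of 6 passed with DZNep and 0 of 6 with Tamoxifen, beside 27.7% and 2.07% of all genes tested. The gene that passed was UBE2L3, that E2, which rose with DZNep by 0.16 (adjusted p = 0.0336). UBB and RPS27A, which encode ubiquitin, the best known relative of ISG15, did not pass in either.

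Proteins reported to carry ISG15 were tested in all 21 cases. With DZNep 9 rose and 2 fell, where 16.6% of all genes tested rose and 11.1% fell, and the median was 0.12 beside 0.01 over all genes. Several of these genes are known as interferon-induced. IFIT1, which binds foreign RNA, rose by 2.77, the RNA sensor IFIH1 by 1.06 and the antiviral GTPase MX1 by 1.05, and DDX58, EIF2AK2, TRIM25, IRF3 and PML were also among those that rose. CCND1, cyclin D1, fell by 0.23 and MAPK3, the kinase ERK1, fell by 0.19 on the log2 scale (adjusted p = 0.0131 and 0.0348). With Tamoxifen 0 of 21 passed, where 2.07% of all genes tested did, and the median was 0.11 beside 0.04 over all genes. TRIM25 and IRF3 are in more than 1 of these lists.

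**Figure D5:**
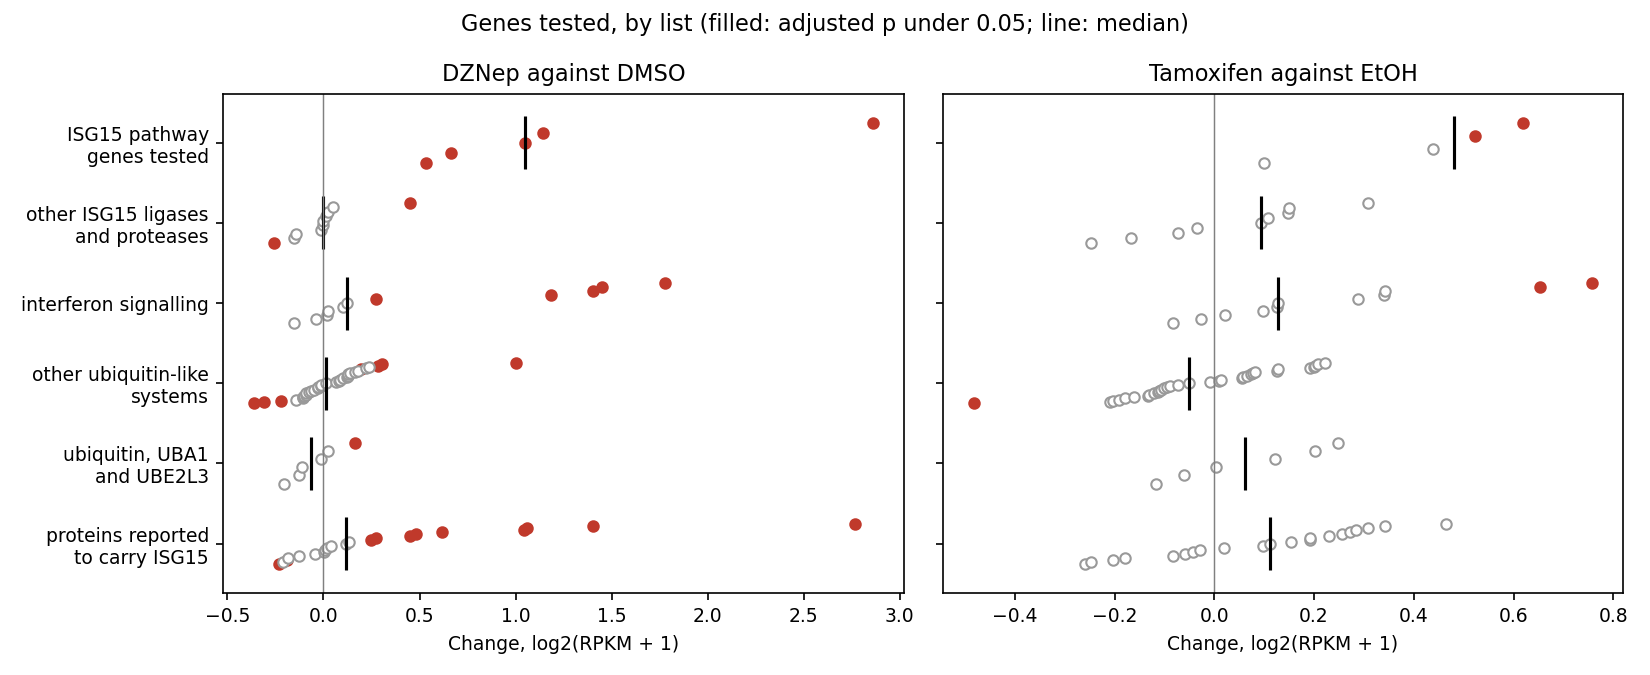
Change on the log2(RPKM + 1) scale (horizontal axes, with a different range in each panel) of the genes tested in each list, with DZNep on the left and Tamoxifen on the right. Filled points passed an adjusted p of 0.05, open points did not, and lines are medians. With DZNep the pathway genes lie between 0.54 and 2.86. The list of other ISG15 ligases and proteases, which includes relatives of HERC6, lies between -0.26 and 0.45.

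Among 10990 other genes tested in both experiments, the 5 whose log2 values, centred within each table, followed the mean of the pathway most closely over the 10 libraries included MMAA (Pearson r = 0.998), APOL9B (0.996), CXCL10 (0.996) and IRGM1 (0.996). Of the 10 points, 6 are DZNep or DMSO libraries and 4 are Tamoxifen or EtOH libraries, and the r values reflect the differences between these groups as well as those between replicates. The mean of the pathway was taken without scaling each gene, so ISG15, with the largest change, weighs most in it. CXCL10 is a T cell chemokine and IRGM1 an interferon-inducible GTPase, and APOL9B has a near-identical relative, APOL9A, so its reads may be shared. MMAA, a mitochondrial protein of vitamin B12 metabolism, measured 6.03 ± 0.0766 RPKM with DZNep and 4.05 ± 0.0818 RPKM with DMSO (log2 change 0.48; adjusted p = 5.20e-04). It measured 4.29 ± 0.122 RPKM with Tamoxifen and 3.81 ± 0.0484 RPKM with EtOH (0.14; adjusted p = 0.239).

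Markers of other cells were measured beside these results. In bulk RNA, fewer cells of a type and less RNA per cell cannot be told apart. The summed level of the immune list was 16.2 to 18.0 RPKM with DZNep, against 13.5 to 16.9 RPKM with DMSO, and 12.3 to 14.4 RPKM with Tamoxifen, against 11.7 to 14.3 RPKM with EtOH, nearly all of it CD68, while CD8A, MS4A1, NKG7, ITGAX and FCGR1 were listed at 0 in every library. The list for plasmacytoid dendritic cells, strong interferon producers, summed to 37.1 to 43.7 RPKM with DZNep, against 12.96 to 13.7 RPKM with DMSO, and to 22.2 to 26.5 RPKM with Tamoxifen, against 12.3 to 13.5 RPKM with EtOH. That sum was mostly BST2, itself an interferon-induced gene, and SIGLECH, the defining marker, reached at most 0.00390 RPKM. Of 9 fibroblast and smooth muscle markers, DCN and ACTA2 averaged over 1 RPKM with DZNep and DCN alone in the other groups. That list summed to 8.32 to 9.50 RPKM with DZNep, against 3.05 to 4.32 RPKM with DMSO, and to 2.79 to 4.25 RPKM with Tamoxifen, against 3.42 to 3.86 RPKM with EtOH. Nearly all of it was DCN (mean 6.11 RPKM with DZNep and 2.77 RPKM with DMSO) and ACTA2 (2.62 and 0.692 RPKM). COL1A1 reached at most 0.130 RPKM in any library, and COL3A1 and DES were listed at 0 in all. COL1A1, PDGFRA and PDGFRB were lower with DZNep than with DMSO, and MYH11 was higher, all near 0. The endothelial list summed to at most 0.486 RPKM in any library. The epithelial list summed to 7745 to 7963 RPKM with DZNep, against 6385 to 6652 RPKM with DMSO, and to 5526 to 5735 RPKM with Tamoxifen, against 6651 to 6795 RPKM with EtOH. The part of the fibroblast and epithelial shifts in the pathway's changes was not tested.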

How the data were processed

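Libraries were made with an Illumina TruSeq stranded kit from 500 ng of TRIzol-extracted RNA, per the labels' protocols. The tools named are STAR, Cufflinks and bcl2fastq 2.18, with genome build mm9, per the submitters' processing notes. For the handling of strand and of multiply aligned reads, the settings are not given in the sources used here. Each experiment has its own deposited table of log2 RPKM, made by the authors. Its lowest value is 0, as log2(RPKM + 1) would give, and RPKM was recovered on that reading. In the table of the genetic experiment, 2 rows without values and 27 rows whose symbols had become dates were left out. Counts could not be recovered, so no count model was used. Genes averaging at least 1 RPKM were tested with limma 3.58.1 in R 4.3.3 (mean trend, two-sided, Benjamini-Hochberg adjustment over all genes tested, threshold 0.05), in each experiment alone. The difference of effects was fitted over all 10 libraries with 4 group means. Intervals are 95% intervals from limma. The fits were tested on simulated data. Promoter windows are from RefSeq (GRCm38.p6), a build other than mm9. In GENCODE M21, Gm20661 overlaps UBA7 on the same strand, Gm45193 and Gm19244 overlap HERC6, and Gm44148 overlaps USP18 on the opposite strand, so their reads may not be fully separable. Named genes were the 5 members, EZH2, those of smallest p in each context list (3 with DZNep, 2 with Tamoxifen) and the 5 most alike in pattern. Others of a list are named where they passed or a sentence needs them, after their values were seen. The members and lists were chosen with earlier results of these data known. Plots used Python 3.11.15 with matplotlib 3.10.9. Alternatives covered the filter, pseudocount, scaling, variance model, replicate block, joint fit and each library left out. The labels name no batch. Some genes that these rules name are not reported here, though the counts include them.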

Additional observations from a re-analysis of the deposited data

Results flagged for a closer look

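For 4 of the 5 genes the effect of DZNep differed from that of Tamoxifen by a direct test of the difference, on the log2(RPKM + 1) scale. Of all genes tested, 19.4% passed that test in either direction, 10.6% with a positive difference. The difference was 2.24 for ISG15, 1.04 for UBE2L6, 0.59 for HERC6 and 0.53 for USP18, each larger with DZNep. HERC6 passed the filter only through its DZNep libraries, in which it was high. For each of the 4 genes every DZNep library lay above every DMSO library, which held for 26.1% of genes tested. Both Tamoxifen libraries also lay above both EtOH libraries, which held for 36.6% of genes tested. The groups, of 2 or 3 libraries, are too small for a search for libraries that stand apart.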

How the results depend on the processing

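With DZNep, 5 members were called in each alternative except the filter of 5 RPKM, which left 4 to test, all of which rose. For the difference, 4 were called in each alternative except that filter, with 3 of 4 tested. With Tamoxifen the count of 2 became 0 with no filter, 1 with the filter of 5 RPKM, which left ISG15 untested, and 0 to 3 when each library was left out in turn. ISG15 (0.62) and USP18 (0.52) kept their changes with no filter but not their calls, and when each library was left out in turn they ran from 0.54 to 0.70 and from 0.49 to 0.55. UBA7 (0.44) passed with robust variances, the replicate block and the joint fit, and ran from 0.31 to 0.56 with each library left out. Its difference of effects ran from -0.027 to 0.22, the lower value without EtOH 2. EZH2 with DZNep (-0.28) lost its call with the replicate block (adjusted p = 0.0588) and ran from -0.33 to -0.24 with each library left out, losing it without DMSO 2 (0.0641). With Tamoxifen it ran from -0.058, without EtOH 1, to 0.21. Over all genes, the 3088 calls with DZNep became 1610 with the replicate block and 1522 (without DMSO 2) to 3359 with each library left out, with 1755 without DZNep 2. The 230 calls with Tamoxifen became 1 with no filter, 393 with trimmed mean scaling, 646 with robust variances, 878 with the replicate block, 1015 in the joint fit, 37 (without Tamoxifen 2) to 977 (without EtOH 2) with each library left out, and 50 without Tamoxifen 1. The 2165 calls of the difference became 1130 with the replicate block and 897 (without Tamoxifen 2) to 2333 with each library left out, with 1388, 1280 and 1253 without DMSO 2, EtOH 1 and Tamoxifen 1. The cause was not tested. All fits, the main ones included, assume that the groups they hold vary alike. The joint fit and the difference of effects assume it over all 4 groups.

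In the chemical experiment the replicate numbers gave no clear sign of pairing. Deviations from the group means correlated at 0.0591, 0.0590 and -0.0675 for same-numbered DZNep and DMSO libraries. Not every library there correlated best with its own number. For Tamoxifen and EtOH the same-numbered value was 0.0400. With 2 libraries per group the deviations mirror each other, so this check cannot decide on pairing there. The replicate block raised the calls with Tamoxifen from 230 to 878. With the replicate block UBA7 passed with Tamoxifen (adjusted p = 0.0277), and no other member's call changed. Absolute depth is unknown, and HERC6, near 1 RPKM, was the most weakly measured member.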

Other observations

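Within the pathway, the log2 values of each gene, centred within each table, were set against the mean of the other 4 genes over the 10 libraries. Pearson r was 0.992 for ISG15, 0.976 for USP18, 0.975 for HERC6, 0.962 for UBE2L6 and 0.891 for UBA7. The points include 6 DZNep or DMSO libraries and 4 Tamoxifen or EtOH libraries, and the values are descriptions with no test. They reflect the differences between the groups, given above, as well as those between replicates. The mean was taken without scaling each gene, so ISG15, with the largest change, weighs most in the means used for the others. UBA7 also had the tightest DZNep group, with an SD of 0.769% of the mean, and the widest EtOH group, with an SD of 14.0% of the mean. UBE2L6 had the tightest EtOH group, at 0.510%, and 11.2% in DMSO.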
